A study of Mus musculus with 4 samples.

Results

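The genes described here are 38 regulators of podosomes and of the actin skeleton, gathered around Ppp1r18, out of 53801 genes in the count table. They were matched by exact symbol, each to 1 gene ID. The set was put together by function with results of these same libraries known: Ppp1r18 is one of the few genes that passed the test for DKK1 against PBS. Values of that contrast are therefore given for the members as a description, and the test reported for them is the comparison between the 2 cell preparations, which was not used to choose them. The cells were osteoclast precursors from 2 mice, both C57BL/6 and wild type, profiled by RNA sequencing. Each preparation was split between PBS (phosphate-buffered saline, the vehicle) and DKK1 at 200 ng/ml, both for 3 h, which gives 4 libraries in 2 pairs. Samples that share a number (precursor cells 1, precursor cells 2) were treated as coming from the same mouse. DKK1 is a secreted protein that blocks the canonical Wnt pathway at its Lrp5 and Lrp6 co-receptors. No agent other than DKK1 or PBS is named in the labels, and the sources used here do not give age, sex or how the precursors were isolated and cultured. With 1 mouse per preparation, mouse, culture and library preparation cannot be told apart between precursor cells 1 and 2, and in bulk RNA fewer cells of a type and less RNA per cell cannot be told apart.

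Podosomes are small actin-rich contacts by which macrophages and osteoclasts hold on to their surface, and in osteoclasts they gather into the ring that seals the resorbing area. Each has a core of branched actin made by the Arp2/3 complex when WASP family proteins activate it, surrounded by integrins and the proteins that tie integrins to actin. The kinases Src and Pyk2 (gene Ptk2b) and small GTPases act downstream of integrins and of the M-CSF receptor to build and take apart these contacts. Ppp1r18 encodes phostensin, a subunit that brings protein phosphatase 1 to actin filaments and binds their pointed ends.

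The libraries held 41163663 to 53537927 counts, and the 38 members took 2.18 to 2.54% of them. All 38 were among the 17462 genes abundant enough to test. Markers of the labelled cell type were present: the lowest mean over 10 osteoclast precursor and macrophage markers was 18.5 CPM (counts scaled to library size), for Cx3cr1, and the highest was that of Lyz2, the macrophage lysozyme, at 14288 to 24909 CPM. Mature osteoclast markers were mixed: of 10, Acp5 (329 to 475 CPM), Mmp9 (276 to 586) and the integrin Itgb3 (252 to 331) were abundant, while Calcr, the calcitonin receptor, was at 0 in every library, Oscar had at most 6 counts, and Dcstamp and Ocstamp, needed for cell fusion, had 15 to 96 counts. Neutrophil transcripts were also present, led by Ngp at 1310 to 2972 CPM and S100a9 at 1353 to 2074 CPM.

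Promoter sequence is shown for 4 members: the one called with DKK1 (Ppp1r18), the one lowest with DKK1 in both pairs (Ablim1), and the members whose start windows held a CArG box (Vcl) or the PU.1 motif at or before the start (Vav1). The sequences are from RefSeq on GRCm38.p6, run 5′ to 3′ on the gene's own strand, and cover the 250 bases before a start site. Ppp1r18 had 4 start windows and Ablim1 had 5, and the most upstream is shown for each. Which start these cells used was not examined. They lie at chr17:35865345-35865594 on the plus strand (Ppp1r18), chr19:57314920-57315169 on the minus strand (Ablim1), chr14:20929148-20929397 on the plus strand (Vcl) and chr17:57278850-57279099 on the plus strand (Vav1). Capitals mark a motif match, and the first 2 sequences hold none of the 3 motifs searched.
Ppp1r18: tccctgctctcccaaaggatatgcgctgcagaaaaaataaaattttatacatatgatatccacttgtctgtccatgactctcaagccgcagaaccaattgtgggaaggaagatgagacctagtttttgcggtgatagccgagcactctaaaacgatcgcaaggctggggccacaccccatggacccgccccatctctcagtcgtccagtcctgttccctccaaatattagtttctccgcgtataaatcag
Ablim1: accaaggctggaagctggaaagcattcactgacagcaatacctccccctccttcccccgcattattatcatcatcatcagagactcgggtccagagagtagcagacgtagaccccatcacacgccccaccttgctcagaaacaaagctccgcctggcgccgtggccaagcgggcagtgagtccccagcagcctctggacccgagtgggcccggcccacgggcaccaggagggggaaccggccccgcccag
Vcl: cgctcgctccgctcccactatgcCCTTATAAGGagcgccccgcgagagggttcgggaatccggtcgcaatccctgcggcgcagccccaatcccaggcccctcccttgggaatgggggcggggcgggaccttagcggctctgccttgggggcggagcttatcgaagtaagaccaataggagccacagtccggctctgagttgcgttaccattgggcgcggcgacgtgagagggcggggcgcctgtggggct
Vav1: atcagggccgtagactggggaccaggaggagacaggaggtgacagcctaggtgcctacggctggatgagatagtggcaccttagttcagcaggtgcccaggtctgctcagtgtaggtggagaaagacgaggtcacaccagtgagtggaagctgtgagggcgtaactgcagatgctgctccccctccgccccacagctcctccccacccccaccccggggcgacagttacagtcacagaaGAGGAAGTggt

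RefSeq windows, from 250 bases before to 50 bases after a start, were available for 32 of the 38 members, with 48 windows in all. The windows of all genes numbered 32851. The CArG box, which serum response factor binds in many actin genes, was in 1.63% of all windows and in 1 of the 48 member windows. That window is of Vcl, where CCTTATAAGG begins 227 bases before the start and reads the same on both strands. The TCF/LEF motif CTTTGAT, the site of canonical Wnt signalling, was in 3.73% of all windows and in no member's window. PU.1 is the myeloid factor encoded by Spi1. Its motif GAGGAAGT was in 3.20% of all windows and in 2 of the 48 member windows. It began 11 bases before the start in Vav1 and 2 bases after the start in Arpc1b. Both strands were searched, and the 3 motifs did not overlap in any member's window. A match describes letters only. Positions in the rest of the text are those of GENCODE M21 on GRCm38.

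Levels of different genes are compared in the authors' FPKM, which are scaled to length. In that scale the members spanned from 0.520 (Ablim1) to 655 (Cfl1) as a mean over the 4 libraries, and 18 of the 38 were above 100. Monomer-handling proteins led: cofilin (Cfl1), which severs filaments, at 655, and profilin (Pfn1), which recharges actin monomers, at 505. Next came the Arp2/3 subunit Arpc2 at 337, Hcls1, the blood-cell relative of cortactin, at 274, and the GTPase Cdc42 at 243. Ppp1r18 ranked 24th of the 38 at 48.0, between Actn4 at 49.3 and Wasf2 at 44.6.

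Where family members are both in the set, the form typical of blood cells had the higher level in all 4 libraries. Hcls1 was 34.3 to 43.9 times Cttn (cortactin) in FPKM. Vav1, the exchange factor of blood cells, was 8.20 to 13.3 times Vav3. Rac2 was 6.16 times Rac1 with PBS and 2.26 times with DKK1 in the first pair, and 8.13 and 5.93 times in the second. Rac2 itself stayed between 159 and 178 FPKM. Sh3pxd2a, the Src substrate Tks5 of podosomes and invadopodia, was near the bottom at 0.393 to 1.08 FPKM.

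**Figure D1:**
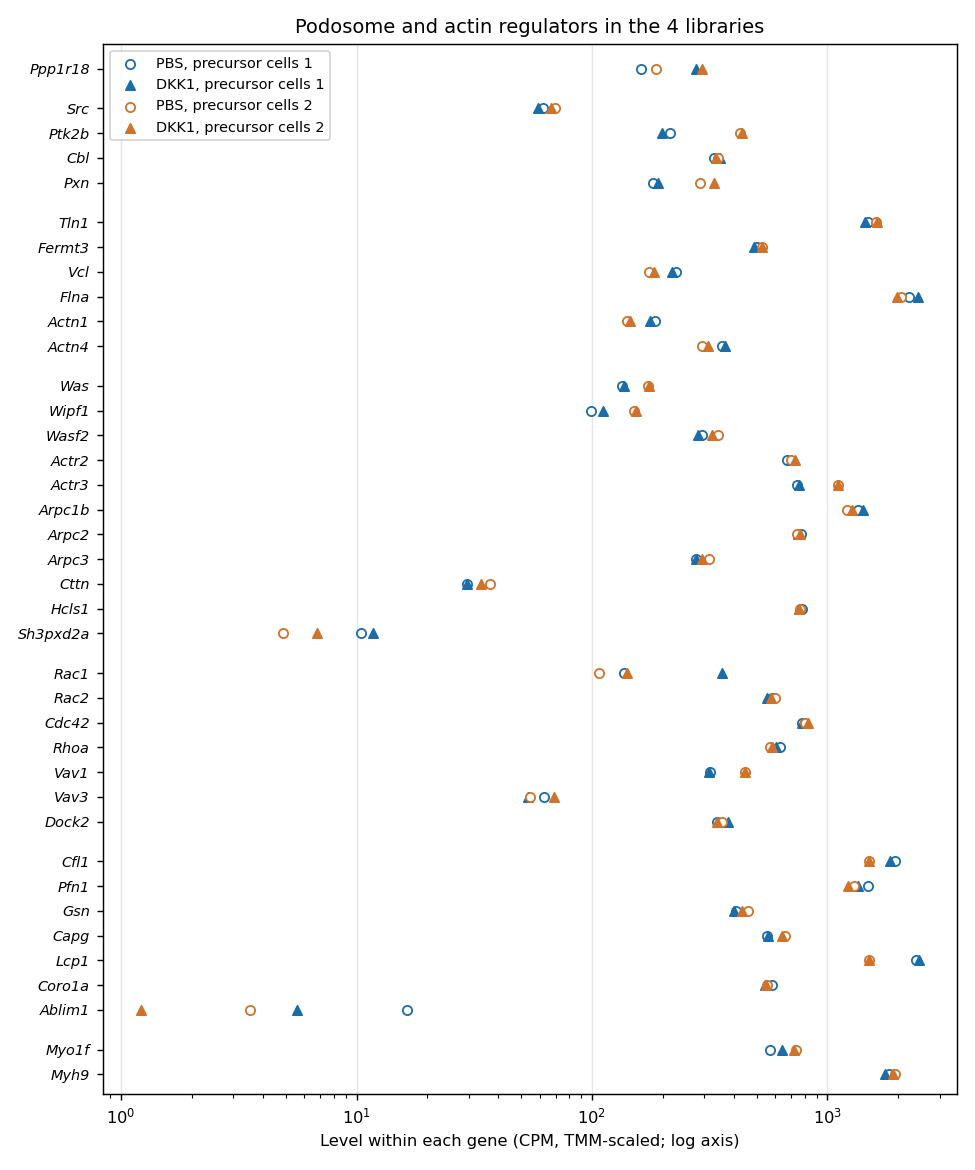
Level of each of the 38 members in the 4 libraries, in TMM-scaled CPM on a log axis, grouped by role; open circles are PBS, triangles DKK1, blue precursor cells 1 and orange precursor cells 2. Most triangles lie on their own circle, while those of Ppp1r18 lie to the right in both colours, that of Rac1 to the right mainly in blue, and those of Ablim1 to the left in both.

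Ppp1r18 was the only member that passed the test for DKK1 in the edgeR fit: 1 of 38, beside 9 of 17462 over all genes (0.0515%), of which 7 were higher with DKK1 (0.0401%) and 2 lower (0.0115%). It lies on chromosome 17 at 35865593-35875596, plus strand. With PBS it had 162 CPM in the first preparation and 186 in the other, and with DKK1 277 and 294. Both DKK1 libraries were above both PBS libraries. The fitted difference was 0.72 on the log2 scale (SE 0.0578, 95% interval 0.58 to 0.86, n = 2 pairs; edgeR adjusted p = 0.0469), a 1.65-fold rise, with 0.78 in the first pair and 0.66 in the second. The call, which brought it into the set, was also made by DESeq2 and was not made with upper-quartile scaling, edgeR's legacy fit or limma-voom, with a difference of 0.72 in each of these fits. The authors' deposited tables, which ask for a log2 ratio of at least 1, do not call it in either pair, with log2 ratios of 0.78 and 0.66.

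Because this contrast brought Ppp1r18 into the set, its call is not tested again here. What the rule did not use is the rest of the locus. Exons of 2 other models overlap Ppp1r18 on the opposite strand, and the strand used in counting is not given in the sources used here. The antisense gene Ppp1r18os had 157, 146, 96 and 91 counts in the order PBS 1, DKK1 1, PBS 2, DKK1 2. The microRNA model Gm28033 had 523, 513, 335 and 475. Scaled to library size, Gm28033 differed between DKK1 and PBS by -0.03 on the log2 scale in the first pair and 0.33 in the second, and Ppp1r18os by -0.11 and -0.24, beside 0.78 and 0.66 for Ppp1r18. With the 3 models summed the difference was 0.69.

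Rac1, the GTPase that drives lamellipodia and feeds the WAVE complex, had the largest positive fitted difference of the set and did not pass the test. It lies on chromosome 5 at 143503634-143528036, minus strand. In precursor cells 1 it went from 136 CPM with PBS to 355 with DKK1, and in precursor cells 2 from 107 to 141. The single library of DKK1-treated precursor cells 1 stood above the other 3. The fitted difference was 0.91 (SE 0.216, 95% interval 0.37 to 1.44; edgeR adjusted p = 0.882), made up of 1.38 in the first pair and 0.40 in the second. Whether the pairs differ cannot be tested with 1 library of each kind. Daglb, on the opposite strand, shares exons with Rac1 and had 6326, 6500, 4596 and 5248 counts in the order above, against 7700, 20152, 4127 and 6135 for Rac1, which held 62.7% of the counts of both. Summed with Daglb, Rac1's difference was 0.57. Of the members, the authors' deposited table for precursor cells 1 calls Rac1 (log2 ratio 1.38) and Ablim1 (log2 ratio -1.37), beside 122 of 13253 genes (0.921%), and the table for precursor cells 2 calls none of them, beside 130 of 13175 (0.987%).

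**Figure D2:**
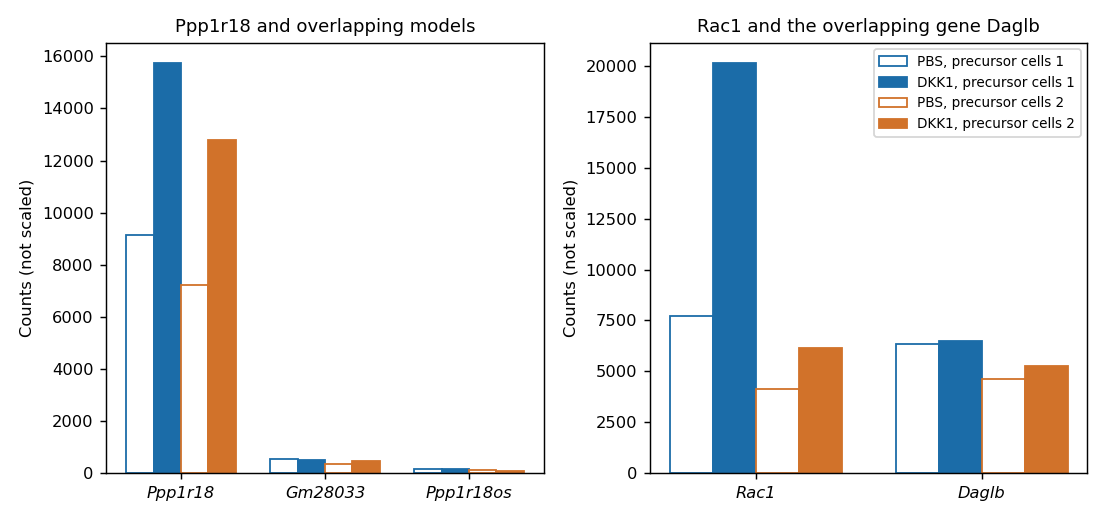
Unscaled counts in each library at the Ppp1r18 locus (left) and the Rac1 locus (right), each gene beside the models whose exons overlap it; bars start at 0, outlined bars are PBS, filled bars DKK1, blue precursor cells 1 and orange precursor cells 2. Ppp1r18 gained 6604 and 5598 counts with DKK1, its overlapping models hold far fewer (91 to 523), Gm28033 being higher with DKK1 in precursor cells 2 (335 to 475), and Rac1 gained 12452 counts in precursor cells 1 against 2008 in precursor cells 2.

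Ablim1, an actin-binding LIM protein that tethers filaments, had the largest negative fitted difference. It lies on chromosome 19 at 57032733-57314919, minus strand, with 921, 317, 137 and 53 counts in the library order above, or 16.3, 5.59, 3.54 and 1.22 CPM. Each DKK1 library was below its own PBS library, by -1.54 and -1.51 on the log2 scale, but DKK1-treated precursor cells 1 were above PBS-treated precursor cells 2. The fitted difference of -1.54 (SE 0.188, 95% interval -2.01 to -1.08) did not pass in edgeR (adjusted p = 0.166) and passed in DESeq2 (adjusted p = 0.00618). A 10-gene B cell marker list summed to 258, 172, 89.7 and 85.6 CPM in the same libraries, with no marker at 0 in all of them. Its median difference with DKK1 was -0.61 in the first pair and -0.02 in the second. The erythroid list summed to 104, 73.7, 160 and 125 CPM, lower with DKK1 in both pairs. So were the mast cell and basophil list (25.1, 21.1, 39.4 and 28.6 CPM) and the dendritic cell list (955, 767, 4156 and 3934 CPM). The mature osteoclast list (1275, 1211, 1101 and 1009 CPM) was lower too. The T and NK list (28.8, 26.3, 39.2 and 37.0 CPM) was as well. The dendritic median difference was -0.18 in the first pair and 0.24 in the second. The mature osteoclast median was 0.03 and -0.18, and the T and NK median -0.50 and 0.20. The erythroid median was -0.51 and -0.38, and the mast cell median -0.66 and -0.45. The part of any of these lists in the Ablim1 values was not tested.

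Of the other members, 33 of the 38 differed between DKK1 and PBS by under 0.2 on the log2 scale in both pairs, from -0.14 to 0.20, beside 40.2% of all genes tested. No 95% interval of these 33 reached beyond -0.30 or 0.28. Among members with a mean of at least 20 CPM it was 33 of 36 (91.7%), beside 72.7% of all 7135 such genes. Those members were more abundant than such genes in general, with a median of 469 CPM against 58.7. Over all 38 the median difference was -0.004, beside -0.001 over all genes tested, and 23 had the same sign in both pairs (60.5%), beside 51.7% of all genes. Before adjustment 4 members had a p under 0.05 in edgeR, Ppp1r18, Rac1, Ablim1 and Pfn1, beside 781 of all genes (4.47%).

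The signalling kinases and adaptors stayed together. Src, the kinase whose loss leaves osteoclasts unable to form a ruffled border, had 61.8 and 69.6 CPM with PBS and 58.9 and 67.0 with DKK1. Cbl, the ubiquitin ligase that binds Src, had 331 and 342 CPM with PBS and 349 and 336 with DKK1. Pxn (paxillin) had the largest difference of these 4, 0.13, from 0.07 and 0.20 in the pairs. The integrin-actin linkers differed by between -0.03 and 0.06. Talin (Tln1), which activates integrins, had 1485 and 1613 CPM with PBS and 1446 and 1624 with DKK1.

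Of the 11 WASP, WAVE and Arp2/3 genes, 10 differed by under 0.2 in both pairs. Was, the Wiskott-Aldrich protein that switches on Arp2/3 in the podosome core, had 134 and 173 CPM with PBS and 136 and 175 with DKK1. Sh3pxd2a was the exception, at 10.4 and 4.86 CPM with PBS and 11.8 and 6.76 with DKK1, or 0.17 and 0.47 in the pairs. Its fitted difference was 0.28, and it was not among the 4 with a p under 0.05. Among GTPase genes, Rac2, Cdc42, Rhoa, Vav1 and Dock2 each had a fitted difference of at most 0.06 in size, while Vav3 had 62.8 and 53.5 CPM with PBS and DKK1 in the first pair and 54.4 and 68.7 in the second. Its differences had opposite signs in the pairs, -0.23 and 0.34.

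Of the genes of filament turnover, capping and bundling, profilin and Ablim1 had the lowest fitted differences. Profilin had 1483 and 1298 CPM with PBS and 1348 and 1229 with DKK1, or -0.11 in the fit. Both of its DKK1 libraries were below their own PBS library, and DKK1-treated precursor cells 1 were above PBS-treated precursor cells 2. The other 5, Cfl1, Gsn, Capg, Lcp1 and Coro1a, had fitted differences between -0.06 and 0.02. The myosins Myo1f and Myh9 differed by 0.07 and -0.04.

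**Figure D3:**
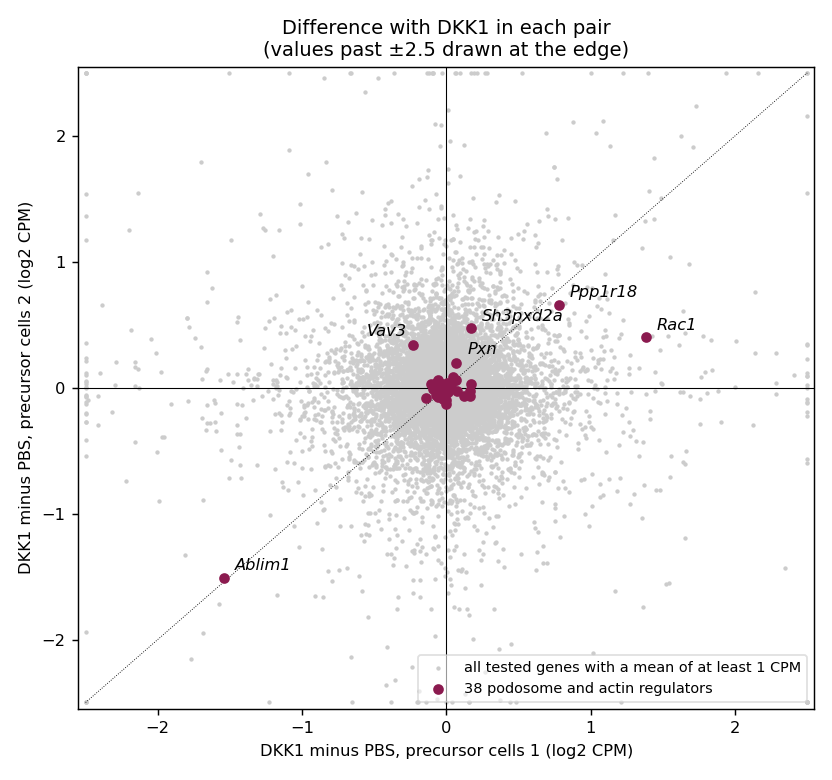
DKK1 minus PBS (log2 CPM) in precursor cells 1 against that in precursor cells 2, for all genes with a mean of at least 1 CPM in grey (values beyond the axes drawn at the edge) and the 38 members in colour. Ppp1r18 is at 0.78 and 0.66, Ablim1 at -1.54 and -1.51 and Rac1 at 1.38 and 0.40, while 33 members lie within 0.2 of 0 on both axes.

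A companion list of 157 further genes of the same roles, such as other phosphatase 1 subunits, integrins, formins, tropomyosins and myosins, was examined beside the members. Of the 152 abundant enough to test, 0 passed the edgeR test with DKK1, and 0 did in DESeq2 or limma-voom. Before adjustment 6 had a p under 0.05 in edgeR, and the median difference was 0.001. The smallest p belonged to Cd44, the hyaluronan receptor found in podosome cores, at 456 and 434 CPM with PBS and 394 and 314 with DKK1 (log2 difference -0.34, edgeR adjusted p = 0.728). Next was cytoplasmic gamma-actin, Actg1 (log2 difference -0.12, edgeR adjusted p = 0.955).

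The 2 preparations were compared in the same libraries, PBS and DKK1 together. In the same edgeR fit 21 of the 38 members (55.3%) passed the test for precursor cells 2 against 1, beside 5913 of all 17462 genes (33.9%). Of the members 10 were higher in precursor cells 2 (all genes, 17.9%) and 11 lower (all genes, 15.9%). Abundant genes passed more often: among those with a mean of at least 20 CPM it was 19 of 36 members (52.8%), beside 50.9% of all such genes, so the members' share lay near this background. Those 19 were 10 higher (all such genes, 27.9%) and 9 lower (22.9%). All 21 had the same sign in the PBS pair and in the DKK1 pair of libraries. The calls came from these same libraries, so the shared sign adds no support to them. The p-values of this comparison rest on 2 libraries of each preparation, from 1 mouse each, so variation among mice does not enter them. Of the 21 calls, 13 held in every other scaling, filter and test tried with all 4 libraries, and 8 were lost in at least 1: Arpc1b, Capg, Flna, Myo1f, Pfn1, Rac1, Tln1 and Wasf2.

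Ppp1r18 was not among the genes called between preparations (log2 difference 0.14, SE 0.0576, edgeR adjusted p = 0.110, 95% interval 0.002 to 0.29). The kinases and adaptors were higher in precursor cells 2 or not called. Ptk2b had 214 and 199 CPM in the libraries of precursor cells 1 against 424 and 433 in those of precursor cells 2, a 2.07-fold difference (log2 1.05, SE 0.0563, edgeR adjusted p = 9e-05), and the 2 preparations did not overlap. Its partner Pxn had 181 and 190 CPM against 287 and 329 (log2 0.73, edgeR adjusted p = 0.00043). For Cbl the difference was -0.002, and for Src 0.18, with a 95% interval of -0.002 to 0.36.

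Of the 6 linkers 4 were lower in precursor cells 2, 1 was higher and 1 was not called, beside 22.9% lower and 27.9% higher among all genes of at least 20 CPM. No test of a role as a whole was run, and its few genes are described one by one. Actn1, which crosslinks filaments at adhesions, had 185 and 177 CPM in precursor cells 1 against 141 and 145 (log2 -0.34, edgeR adjusted p = 0.00936). Vcl (vinculin), which strengthens the talin link under force, had 228 and 219 CPM against 175 and 183 (log2 -0.32, edgeR adjusted p = 0.00998). Vcl shares exons with Ap3m1 on the opposite strand and held 57.1% of the counts of both. Its difference with Ap3m1 added was -0.28 (edgeR adjusted p = 0.0133). Actn4 (-0.26) and Flna (-0.20) were lower too, Tln1 was higher (0.14), and kindlin-3, Fermt3, was at 0.09 without a call.

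The WASP and Arp2/3 genes split by gene, with 4 of 11 higher and 2 lower. The shares over all genes tested were 17.9% higher and 15.9% lower, and 27.9% and 22.9% over those of at least 20 CPM. Actr3, an actin-like core subunit of Arp2/3, had 743 and 755 CPM in precursor cells 1 against 1108 and 1104 (log2 0.56, edgeR adjusted p = 0.00022). Its partner subunit Actr2 was at 0.06 with an interval of -0.04 to 0.16, so the FPKM ratio of Actr3 to Actr2 was 1.24 and 1.21 in precursor cells 1 but 1.78 and 1.70 in the other preparation. Wipf1, the chaperone of WASP (0.54), Was (0.36) and Wasf2, of the WAVE complex (0.21), were higher. Sh3pxd2a (-0.94) and Arpc1b (-0.15) were lower, while Arpc2, Arpc3, Cttn and Hcls1 were not called, at -0.01, 0.12, 0.26 and -0.02. Near-identical models in the count table may share reads with 8 members, Actr3 among them, which held 95.2% of the counts of itself and its copies. Arpc2 has a near-identical model that is not in the count table.

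Of the 7 GTPase genes, Vav1 was higher in precursor cells 2 and Rac1 lower. Among all genes of at least 20 CPM 27.9% were higher and 22.9% lower. Vav1 had 316 and 314 CPM against 445 and 445 (log2 0.50, edgeR adjusted p = 0.00076). Rac1's difference was -0.85 (edgeR adjusted p = 0.0295), but it was -0.35 between the PBS libraries and -1.33 between the DKK1 libraries, and with Daglb added it was -0.49 and not called (edgeR adjusted p = 0.0594). Rac2, Cdc42, Rhoa, Vav3 and Dock2 were not called, at 0.06, 0.07, -0.10, 0.08 and -0.05.

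Of the 7 filament genes 4 were lower in precursor cells 2 and 1 was higher, beside 15.9% and 17.9% of all genes tested and 22.9% and 27.9% of those of at least 20 CPM. Lcp1 (L-plastin), the bundling protein of leukocyte podosomes, had 2389 and 2439 CPM in precursor cells 1 against 1498 and 1504 (log2 -0.69, SE 0.0318, edgeR adjusted p = 5e-05), and the preparations did not overlap. Cfl1 had 1932 and 1839 CPM against 1497 and 1505 (log2 -0.33, edgeR adjusted p = 0.00152). Ablim1 was at -2.20 (edgeR adjusted p = 0.00077) and Pfn1 at -0.16, while Capg, a filament-end capping protein of macrophages, was higher (0.23). Gelsolin (Gsn, 0.14) and Coro1a (-0.03) were not called. Of the myosins, Myo1f was higher (0.27) and Myh9, the heavy chain of nonmuscle myosin IIA, was at 0.09 without a call.

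**Figure D4:**
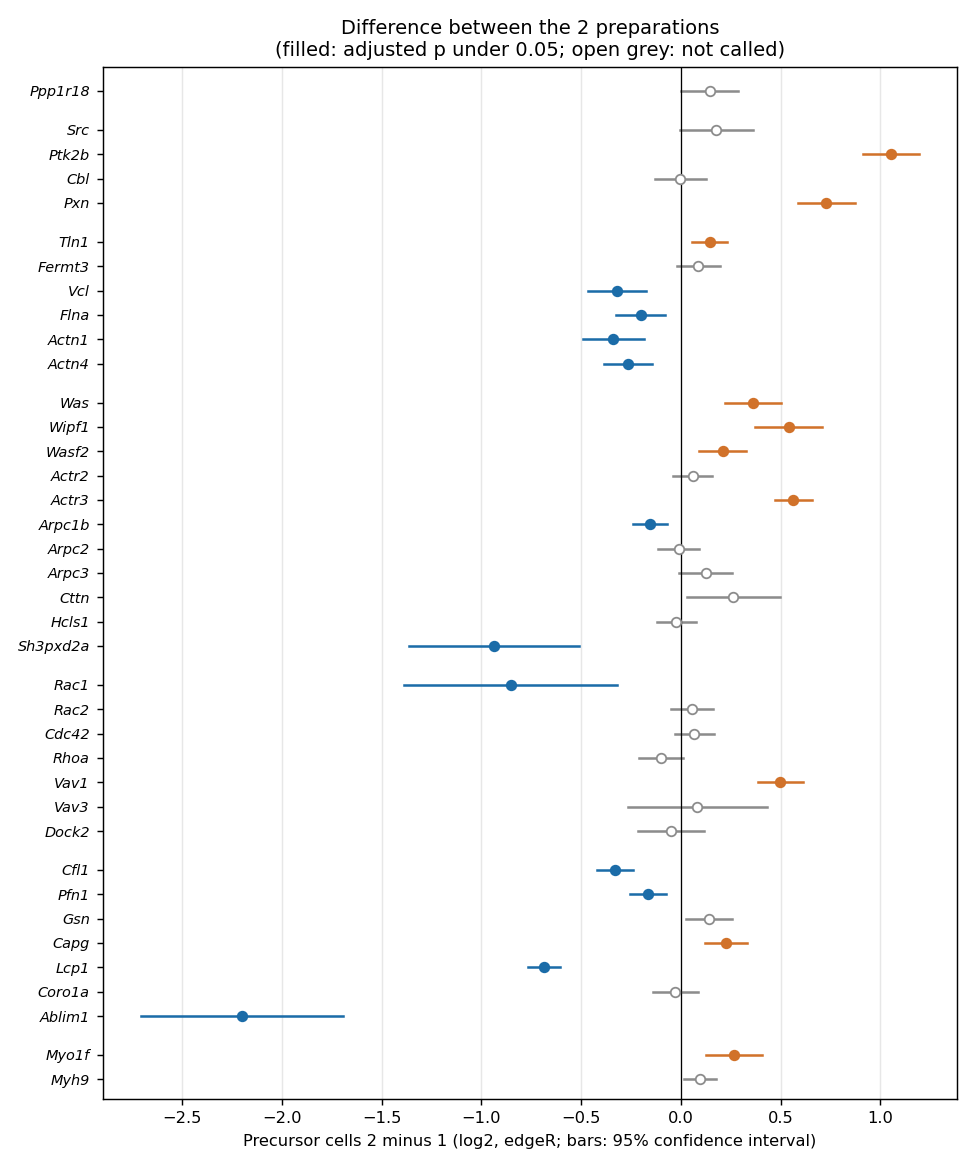
Precursor cells 2 minus precursor cells 1 for the 38 members, as the fitted log2 difference with its 95% interval, ordered by role; filled points passed the edgeR test at an adjusted p of 0.05. Ablim1 (-2.20), Sh3pxd2a (-0.94), Rac1 (-0.85) and Lcp1 (-0.69) lie lowest, and Ptk2b (1.05) and Pxn (0.73) highest.

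Of the companion genes 81 of 152 (53.3%) passed, 50 higher in precursor cells 2 and 31 lower, beside 33.9% of all genes tested and 50.9% of those of at least 20 CPM. Among kinases and adaptors, Pstpip1 (0.68) was higher and Ptk2, the focal adhesion kinase related to Ptk2b, was lower, as was Fgr (-0.41). Ptk2 had 32.8 and 31.9 CPM in precursor cells 1 against 15.5 and 16.8, opposite to Ptk2b. Among linkers, the integrin Itga4 (0.78) and Evl (0.64) were higher and Parvb (-0.62) lower. In the WASP list 4 of 19 (21.1%) were higher, beside 17.9% of all genes tested and 27.9% of those of at least 20 CPM. Those 4, led by the WAVE complex gene Abi3 (1.22) and Dbnl (0.70), were its only calls in edgeR.

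Among GTPase genes the exchange factors Dock10 (1.05) and Dock8 (0.50) were higher and the GTPases Rhob (-0.91) and Rhoq (-0.57) lower. The unconventional myosins Myo1g (0.36) and Myo9b (0.23) were higher, and Myo10 (-1.09) and the light chain Myl9 (-1.35) lower. The phosphatase 1 subunits Ppp1r12b (0.55) and Ppp1r9b (0.40) were higher and Ppp1r14b (-0.97) lower.

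Some markers of other cells differed between the preparations as well. Over all genes tested 17.9% were called higher in precursor cells 2 and 15.9% lower. Among those of at least 20 CPM it was 27.9% and 22.9%. Of 10 neutrophil markers 8 were higher in precursor cells 2, Cxcr2 was lower (-0.37) and Retnlg was not called (0.05). The list summed to 4866 and 4817 CPM in precursor cells 1 against 8929 and 9158. The 6 dendritic cell markers summed to 955 and 767 CPM against 4156 and 3934, with Cd74 (2.14) and H2-Ab1 (2.73) the most abundant. Of these 6, 3 were higher in precursor cells 2 and 2 were lower, Flt3 (-1.21) and Siglech (-1.54). Of 10 B cell markers 9 were lower in precursor cells 2, Cd79a among them (-1.78), while Cd22 was higher (0.91). The precursor and macrophage list summed to 33637 and 33537 CPM against 25487 and 26089, with Lyz2 at -0.78 and Mpeg1 at 0.73. Lyz2 alone had 24909 and 24782 CPM against 14288 and 14685. Of the 10 markers in this list 4 were higher in precursor cells 2 and 2 lower, with a median difference of 0.09. The mature osteoclast list summed to 1275 and 1211 CPM against 1101 and 1009, with Mmp9 (-0.87) and Acp5 (0.42) the most abundant. Mmp9 alone had 586 and 496 CPM against 317 and 276. Of the 8 markers tested in this list 4 were lower in precursor cells 2 and 2 were higher, Acp5 and Ctsk (2.27). The megakaryocyte list summed to 1726 and 1632 CPM against 1103 and 1113, led by Pf4 (-1.17) and Ppbp (-0.48). Sums were at most 186 CPM in every library for the erythroid, stromal, endothelial, mast cell and T and NK lists. In that order the most abundant markers were Hba-a1 (0.54) and Hbb-bs (0.96), Col1a1 (0.39) and Sparc (1.13), and Vwf (-0.23) and Kdr (2.74). For the mast cell and the T and NK lists they were Prss34 (1.05) and Gata2 (-0.72), and Cd4 (1.21) and Cd247 (-0.14). Gata2 and Cd247 were not called. In the T and NK list 2 of 8 tested markers were called (25%), beside 33.9% of all genes. Many members, such as Was, Vav1, Lcp1 and Coro1a, are expressed in leukocytes of several kinds, and the part of other cells in the differences between preparations was not tested.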

How the data were processed

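The table analysed holds counts per gene as deposited by the authors, whole numbers without normalization. Per the submitters' processing notes the tools were fastp and HISAT2 and the build mm10. The sources used here do not give the counting program, annotation or strand. FPKM values come from the authors' deposited tables, 1 per pair. Their log2 ratios and p-values (FDR) in those tables are the authors' own, from a test that is not stated. Counts were tested with edgeR 4.0.16 in R 4.3.3 (quasi-likelihood, TMM scaling, filterByExpr), with terms for precursor cells and treatment and 1 residual degree of freedom. P-values are two-sided, Benjamini-Hochberg over 17462 genes, threshold 0.05. Same-numbered libraries deviated together (correlation 0.726), and the pairing comes from the sample names. Pair differences are log2 CPM with a prior count of 2. Overlapping and near-identical models (BLAST 2.17.0, 95% identity over at least 100 bases and 50% of the shorter transcript) come from GENCODE M21. The fit was tested on simulated data. Alternatives used limma 3.58.1, DESeq2 1.42.0 and other scalings, filters and subsets.

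The members, companion and marker lists were chosen with earlier results of these data known. The text names all members, models overlapping a called member, up to 2 called companion genes of smallest p per list and direction between preparations (with DKK1 the 2 of smallest p), and the 2 most abundant markers per list. Some genes that this rule names are not reported here. Daglb, Ap3m1, other markers and the limit of 20 CPM were chosen after seeing values.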

Additional observations from a re-analysis of the deposited data

Results flagged for a closer look

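Vav3, an exchange factor for small GTPases, stood out because its libraries moved in opposite directions in the pairs: DKK1 minus PBS was -0.23 in the first pair and 0.34 in the second, a difference of 0.57 on the log2 scale. With 1 library of each kind per pair, this difference was not tested.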

How the results depend on the processing

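With the pairing removed (no replicate block), 0 members and 0 genes in all were called with DKK1, beside 1 and 9 with it, and the adjusted p of Ppp1r18 was 1.00. All genes called with DKK1 numbered 5 with upper-quartile scaling, 0 without a filter, 15 with at least 1 CPM in 2 libraries, 3 with edgeR's legacy fit, 46 with DESeq2 and 2 with limma-voom. Members called numbered 0 with upper-quartile scaling, no filter, legacy fit and limma-voom, and 2 with DESeq2 (Ppp1r18 and Ablim1). Leaving out a library, which also drops the block, left 0 calls in either count. Ppp1r18's difference with DKK1 was 0.62 to 0.82 then. No companion gene was called with DKK1 in any setting. Between preparations, members called numbered 8 to 18 when a library was left out, beside 21 with all 4 (6 to 9 higher, 2 to 9 lower), companion genes 47 to 67 and all genes 3194 to 4574. Without PBS-treated precursor cells 2 the calls were 8 members, 52 companion genes and 3346 genes in all, and without DKK1-treated precursor cells 2 they were 12, 47 and 3194. Without a filter 6 members were higher and 3509 genes were called in all, and with DESeq2 7 members were lower. Some uncalled differences between preparations changed sign: Cbl was 0.0066 with RLE scaling, 0.0067 with DESeq2 and 0.0020 with at least 1 CPM. Leaving out 1 library in turn also turned Cbl (0.035 and 0.0034), Ppp1r18 (-0.21 and -0.24), Arpc2 (0.0066 and 0.0042), Vav3 (-0.026 and -0.10), Dock2 (0.030) and Coro1a (0.016). Dropping a library leaves PBS and DKK1 unequal between preparations, and the treatment term was dropped as well. With 1 residual degree of freedom, small differences with DKK1 may not be detectable, and Ablim1 and Sh3pxd2a rest on few counts.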

Other observations

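Companion genes for thymosins, which hold actin monomers, and tropomyosins, which run along filaments, included calls in both directions between preparations. Tmsb10 had 195 and 213 CPM in precursor cells 1 against 417 and 447 in precursor cells 2 (log2 1.08, edgeR adjusted p = 4.9e-05), while Tmsb4x had 4364 and 4324 against 2895 and 2712 (log2 -0.63, edgeR adjusted p = 7.5e-05). Tpm3 had 423 and 385 CPM in precursor cells 1 against 750 and 771 (log2 0.91, edgeR adjusted p = 0.000152), and Tpm4 had 656 and 682 against 363 and 366 (log2 -0.88, edgeR adjusted p = 7.4e-05). These 4 genes were put side by side after their values were seen, and 50.9% of all genes of at least 20 CPM were called between preparations.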
